A study of Mus musculus with 6 samples.

Results

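A set of 10 genes used to mark mammary stem cells and tumour-initiating cells was followed by RNA sequencing through an epithelial-to-mesenchymal transition and its reversal in EpH4, a near-normal, non-tumour line of mouse mammary epithelial cells. The genes were taken by name (*Cd44*, *Cd24a*, *Prom1*, *Aldh1a1*, *Aldh1a3*, *Procr*, *Sox9*, *Lgr4*, *Bmi1* and *Hmga2*), and all 10 were among the 17428 genes of the table. Stages of the line were compared, each in 2 libraries and so in 6 libraries in all. E cells were grown in normal medium with serum and insulin, M cells were grown for 7 days with transforming growth factor β1 (TGFβ1) added to that medium, and RE (reverted epithelial) cells were M cells kept for another 4 days in normal medium without TGFβ1. RE cells thus also spent 4 more days in culture than M cells, so time and TGFβ1 removal cannot be told apart. The labels name no genetic change in any stage, and all are cultures of 1 cell line, so they stand for that line and not for the mammary gland. The methods give 2 biological replicates per stage, while the labels speak of 3 biological replicas at extraction and the series' design of 3 isogenic lines, so n = 2 here means 2 libraries of a stage. The RNA was bulk RNA, so the stages were compared as whole cultures.

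The markers belong to several systems. CD44 is the receptor for hyaluronan, a sugar polymer of the extracellular matrix, and cells with high CD44 and low CD24, a small glycoprotein anchored to the membrane, are the classical tumour-initiating fraction of breast cancer. PROM1 (CD133) is a pentaspan membrane protein, and ALDH1A1 and ALDH1A3 oxidise retinaldehyde to retinoic acid and account for much of the aldehyde dehydrogenase activity by which stem-like cells are sorted. PROCR is the protein C receptor, which marks multipotent basal cells of the mouse gland. SOX9 is a transcription factor of luminal progenitors, LGR4 is a receptor for R-spondins, which raise Wnt signalling, BMI1 is a subunit of the Polycomb repressive complex 1 (PRC1), and HMGA2 is a chromatin protein repressed by the let-7 microRNAs.

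The 6 libraries held between 35782513 and 47928557 reads' worth of sequence at 50 bases per read. Values are given in ppm, that is, parts per 1000000 of a library's sequenced bases, after scaling, that fell on a gene, and a floor was set at the coverage of 3 reads (150 bases), which corresponds to 0.0635 to 0.0781 ppm. Such a floor covers counting error only. Replicates lay furthest apart in E cells, where 1049 genes differed more than 2-fold between the 2 libraries, against 274 in M cells and 224 in RE cells. Markers of other cell types were summed by list (lowest and highest library of each stage). Epithelial genes summed to 2844 to 3100 ppm in E, 2857 to 2895 in M and 1121 to 1250 in RE cells, although *Krt19* stayed at or below 0.162 ppm. *Krt7* led that sum, with means of 1409, 1585 and 366 ppm in E, M and RE cells. *Epcam*, listed under an older name, had means of 313, 130 and 132 ppm. *Cdh1* had means of 302, 274 and 269 ppm, and *Krt8* of 202, 319 and 127 ppm. Basal genes summed to 306 to 375, 787 to 893 and 499 to 501 ppm with *Krt5* at or below 0.478 ppm, luminal and milk genes to 10.5 to 19.8, 6.60 to 6.86 and 26.3 to 29.3 ppm with *Wap* at the floor, and fibroblast genes to 70.3 to 71.1, 582 to 681 and 380 to 441 ppm. Within the basal list, *Acta2* had means of 0.466, 79.2 and 3.94 ppm and *Trp63* of 70.4, 49.8 and 165 ppm. Within the fibroblast list, *Col1a1* had means of 32.2, 497 and 236 ppm and *Dcn* of 0.399, 0.0034 and 2.77 ppm. A sum therefore does not speak for each gene of its list. Adipocyte genes stayed at or below 9.08 ppm in every library, with *Adipoq* and *Plin1* at the floor. The part of other cell types in the results was not tested.

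Of the 10 markers, 9 had enough coverage to be tested, and *Aldh1a3* did not. A gene was called when it changed more than 2-fold (1 on the log2 scale) with an adjusted p below 0.01 by limma in a fit of all 6 libraries, and 5 markers (*Cd44*, *Procr*, *Sox9*, *Lgr4* and *Hmga2*) were called in at least 1 comparison. The share of all genes called in at least 1 comparison is not given, here or for the lists below. In E vs. M, 2 of 9 markers were called higher in M cells and 0 were called lower, where 8.58% and 8.39% of all 13893 genes tested were (17.0% in either direction). At an unadjusted p below 0.05 these counts were 5 and 2, against 25.9% and 25.1% of all genes. In M vs. RE, 2 of 9 were called higher and 3 lower in RE cells, against 8.08% and 4.79% of all genes (12.9% in either direction), and 3 and 3 had an unadjusted p below 0.05, against 22.0% and 20.7% of all genes. In E vs. RE, 2 of 9 were called higher in RE cells and 0 lower, against 6.20% and 3.17% (9.37% in either direction), and 4 and 2 reached an unadjusted p below 0.05, against 23.7% and 19.7% of all genes. The median log2 change of the 9 markers was 0.37, 0.12 and 0.42 in the 3 comparisons, against 0.0013, -0.017 and 0.0079 for all genes tested. The comparisons share libraries, so their counts are not independent of each other. With scaling by library totals alone, the median of all genes moved to -0.29, 0.18 and -0.08, and the share of all calls that were higher moved from 50.6% to 30.5% (E vs. M) and was 73.8% instead of 62.8% when M and RE cells were compared.

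**Figure D1:**
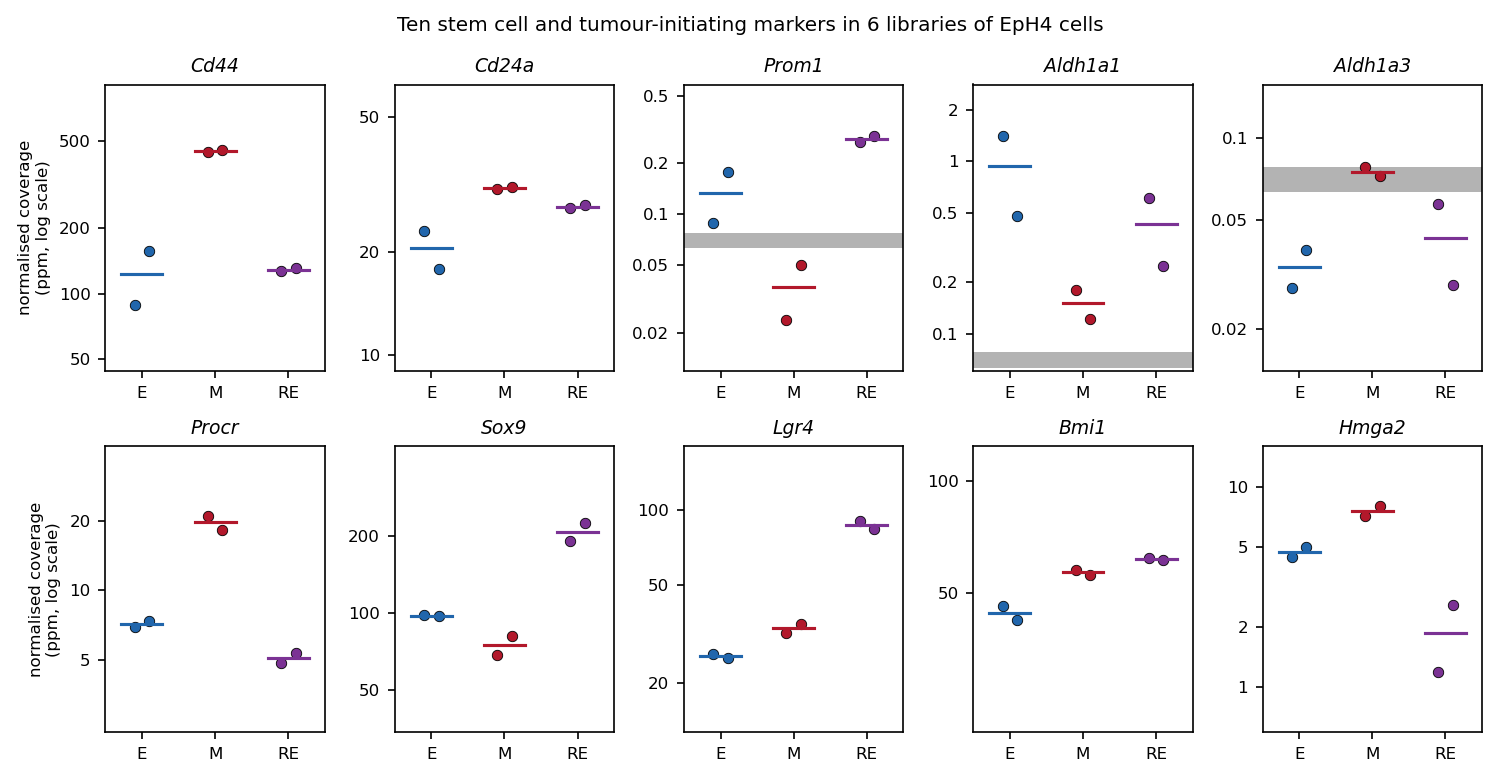
Normalised coverage (ppm, log axis) of the 10 markers in the E, M and RE libraries, where points are single libraries, bars are means of 2 libraries and the grey band is the coverage of 3 reads. *Cd44* and *Procr* stand highest in M cells, *Sox9* and *Lgr4* in RE cells, and *Prom1* and *Aldh1a3* lie at or near the grey band.

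**Figure D2:**
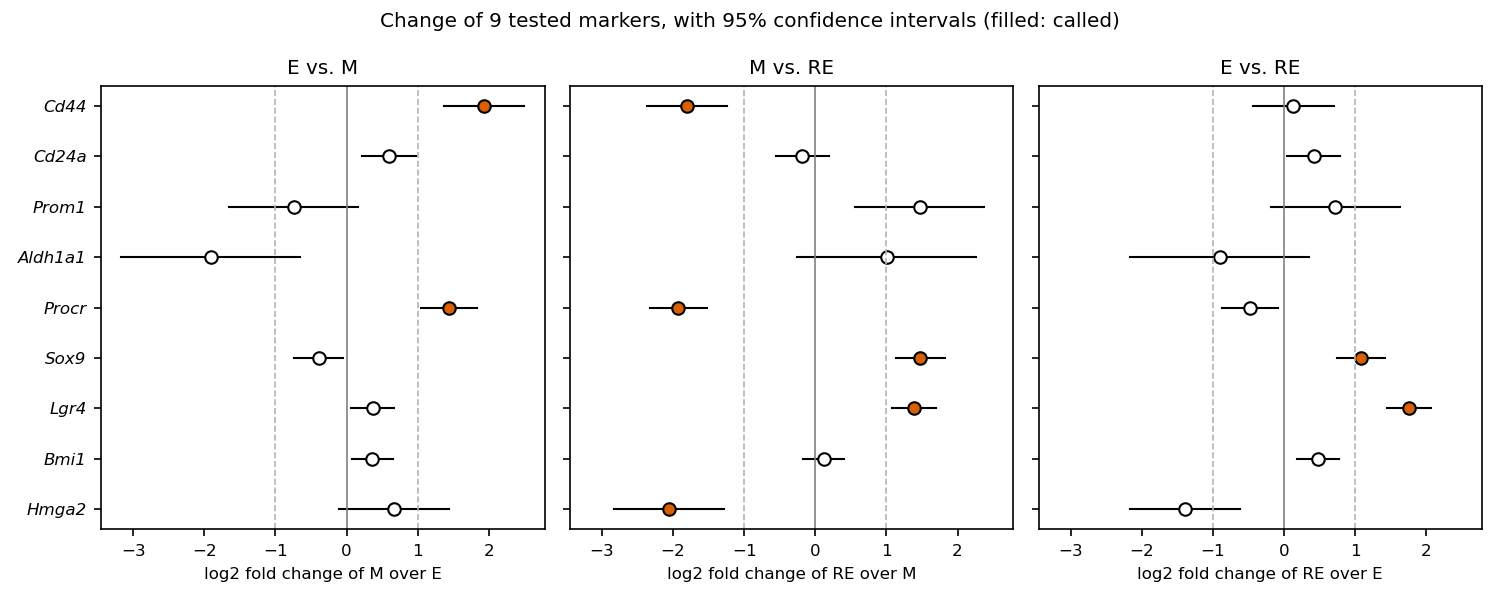
Log2 fold changes of the 9 tested markers in E vs. M, M vs. RE and E vs. RE with 95% confidence intervals, with filled points for called changes. Calls in E vs. M are *Cd44* and *Procr*, and in E vs. RE *Sox9* and *Lgr4*.

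The markers covered a wide span of levels. Per kilobase of the longest coding transcript, *Sox9* (23.6 ppm per kb) and *Cd44* (21.9) were the most abundant in E cells, followed by *Bmi1* (12.3), *Cd24a* (11.3), *Lgr4* (5.09), *Procr* (4.47) and *Hmga2* (1.24). The other markers were low on the same scale, with 0.398 ppm per kb for *Aldh1a1*, 0.0326 for *Prom1* and 0.0098 for *Aldh1a3*. In M cells *Cd44* led at 80.3 ppm per kb, ahead of *Sox9* at 18.1, and in RE cells the order was turned, with *Sox9* at 50.2 and *Cd44* at 23. Some reads could belong to near-identical genes. Exact 50-base stretches shared with other annotated genes made up 18.5% of the *Bmi1* transcript, 6.54% of *Aldh1a1*, 4.36% of *Hmga2* and 3.9% of *Cd24a*, and 0 of the other 6.

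RefSeq (GRCm38.p6) gave promoters for 7 of the 10 markers, and *Sox9*, *Cd24a* and *Aldh1a3* had no entry. The 250 bases before the start are shown for the 4 called markers with an entry, since these are the genes whose RNA moved, with the markers highest in M cells first and *Lgr4*, highest in RE cells, last. The windows are chr2:102901666-102901915 on the minus strand for *Cd44*, chr2:155750967-155751216 on the plus strand for *Procr*, chr10:120476470-120476719 on the minus strand for *Hmga2* and chr2:109917397-109917646 on the plus strand for *Lgr4*. Capitals mark matches on either strand to an E-box (CAGGTG), an AP-1 site (TGANTCA), a TEAD site (GGAATG) or a CCAAT box.
Cd44: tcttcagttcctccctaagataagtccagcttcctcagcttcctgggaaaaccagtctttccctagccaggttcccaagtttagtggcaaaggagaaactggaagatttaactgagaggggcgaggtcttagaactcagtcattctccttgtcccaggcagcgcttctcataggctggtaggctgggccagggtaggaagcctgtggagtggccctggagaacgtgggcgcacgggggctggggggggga
Procr: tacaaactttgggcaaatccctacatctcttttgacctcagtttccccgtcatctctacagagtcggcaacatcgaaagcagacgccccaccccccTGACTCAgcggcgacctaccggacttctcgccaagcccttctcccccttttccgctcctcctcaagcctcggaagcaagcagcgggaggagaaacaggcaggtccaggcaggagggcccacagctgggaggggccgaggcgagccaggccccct
Hmga2: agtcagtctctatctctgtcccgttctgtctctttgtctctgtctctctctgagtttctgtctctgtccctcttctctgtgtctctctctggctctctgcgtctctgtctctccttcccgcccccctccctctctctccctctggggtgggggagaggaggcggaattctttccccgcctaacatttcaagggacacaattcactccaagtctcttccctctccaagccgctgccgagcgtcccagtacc
Lgr4: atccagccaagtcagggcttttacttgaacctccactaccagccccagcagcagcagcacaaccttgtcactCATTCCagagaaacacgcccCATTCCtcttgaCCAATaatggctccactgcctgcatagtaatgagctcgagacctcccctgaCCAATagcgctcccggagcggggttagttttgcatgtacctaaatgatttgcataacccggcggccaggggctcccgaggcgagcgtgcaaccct
The Procr window held 1 AP-1 match, and the Lgr4 window held 2 TEAD and 2 CCAAT matches. The letters of the 4 motifs were not found in the Cd44 and Hmga2 windows. Of all 32851 promoters of the same length, 17.2% held the E-box, 6.75% the AP-1 site, 12.6% the TEAD site and 33.8% the CCAAT box, and a match is a description of letters only. The last 50 bases of the Procr window also lie in an annotated GENCODE transcript of the gene, and those of the other 3 windows do not.

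*Cd44*, the hyaluronan receptor, was higher in M cells than in E or RE cells. It was measured at 88.6 and 157 ppm in the E libraries, 447 and 455 ppm in the M libraries and 127 and 131 ppm in the RE libraries. The M libraries lay far above the others, and the RE libraries lay between the 2 E libraries. The mean rose 3.67-fold from E cells (123 ± 48.2, SD, n = 2) to M cells (451 ± 5.54), which was a log2 change of 1.93 (SE 0.24, adjusted p = 8.10e-04 by limma), and was 3.49-fold lower in RE cells (129 ± 2.24) with a log2 change of -1.80 (SE 0.24, adjusted p = 0.00138). E and RE cells differed by 0.13 on the log2 scale (95% confidence interval -0.44 to 0.70, adjusted p = 0.711). Because the RNA was bulk, fewer cells expressing a marker and less RNA per cell cannot be told apart, here or for the other genes. The E vs. M call was lost with 1 M library left, at adjusted p = 0.0110 without the first and 0.0112 without the second. The M vs. RE call was lost when any single M or RE library was left out, while the log2 change stayed between -1.82 and -1.79. The SE is 1 estimate shared by the 3 comparisons, and the E libraries enter it. Replicates of *Cd44* differed 1.77-fold in E cells, but 1.02-fold in M and 1.02-fold in RE cells. This SE and the lost calls thus do not measure the spread of M and RE cells alone. CD44 is also abundant on blood cells, and the haematopoietic list summed to 1.45 to 1.66 ppm in E, 26.0 to 30.3 ppm in M and 1.64 to 2.32 ppm in RE cells. Nearly all of that sum in M cells was *Csf1r* (25.8 and 29.9 ppm), and *Ptprc* and *Cd3e* were at the floor in all libraries.

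*Cd24a*, whose protein is read together with CD44, changed little. It was measured at 23.1 and 17.9 ppm in E cells, 30.6 and 31.1 ppm in M cells and 26.9 and 27.5 ppm in RE cells, with the E libraries below all others. The log2 difference was 0.60 in E vs. M (95% confidence interval 0.22 to 0.98, adjusted p = 0.0214 by limma), -0.18 in M vs. RE (-0.56 to 0.20, adjusted p = 0.438) and 0.42 in E vs. RE (0.04 to 0.80, adjusted p = 0.0879), and it was called in none of the 3. The M vs. RE difference turned to 0.02 with scaling by library totals. The ratio of *Cd44* to *Cd24a* coverage, which does not depend on the scaling of a library, was 3.83 and 8.76 in the E libraries, 14.6 in each M library and 4.73 and 4.75 in the RE libraries. The ratio was thus highest in M cells, and the RE ratios lay between those of the E libraries. It was not tested, and RNA ratios of a culture do not count CD44-high, CD24-low cells.

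Genes that make or bind hyaluronan and that link or splice CD44 moved in both directions. Of 15 genes of this list, all tested, 4 rose and 3 fell in E vs. M, 0 rose and 3 fell in M vs. RE, and between E and RE cells 3 rose and 2 fell. Of all genes tested, 8.58% were called higher and 8.39% lower in E vs. M. These shares were 8.08% and 4.79% in M vs. RE and 6.20% and 3.17% in E vs. RE. The median log2 change of the list was 0.23, -0.17 and 0.04 in the 3 comparisons. *Has2*, a hyaluronan synthase, was measured at 6.26 and 5.41 ppm in E, 192 and 165 ppm in M and 19.2 and 23.9 ppm in RE cells. It rose by 4.91 on the log2 scale in E vs. M (SE 0.17, adjusted p = 9.20e-06 by limma) and changed by -3.05 in M vs. RE (SE 0.17, adjusted p = 2.63e-05). *Msn*, which codes for moesin and ties CD44 to the actin cortex, rose from a mean of 304 ppm in E cells to 1454 ppm in M cells (log2 change 2.30, SE 0.22, adjusted p = 2.27e-04 by limma) and stood at 383 ppm in RE cells. *Cemip*, a gene of hyaluronan breakdown listed under an older name, was measured at 0.307 and 0.491 ppm in E, 2.32 and 2.30 in M and 2.30 and 2.24 in RE cells, so that the M and RE libraries did not separate. Its E vs. M call (log2 change 2.30, adjusted p = 5.94e-04) was lost without the first M library (adjusted p = 0.0103). *Esrp1* and *Esrp2*, splicing regulators of epithelial *Cd44* isoforms, were measured at means of 332 and 58.1 ppm in E cells, 96.9 and 23.8 ppm in M cells and 127 and 45.0 ppm in RE cells. *Esrp1* fell in E vs. M (log2 change -1.72, adjusted p = 0.0013 by limma), a call lost without the first (0.0173) or the second (0.0142) M library, and *Esrp2* was named after its values were seen. Coverage summed per gene does not show which *Cd44* isoforms were made.

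**Figure D3:**
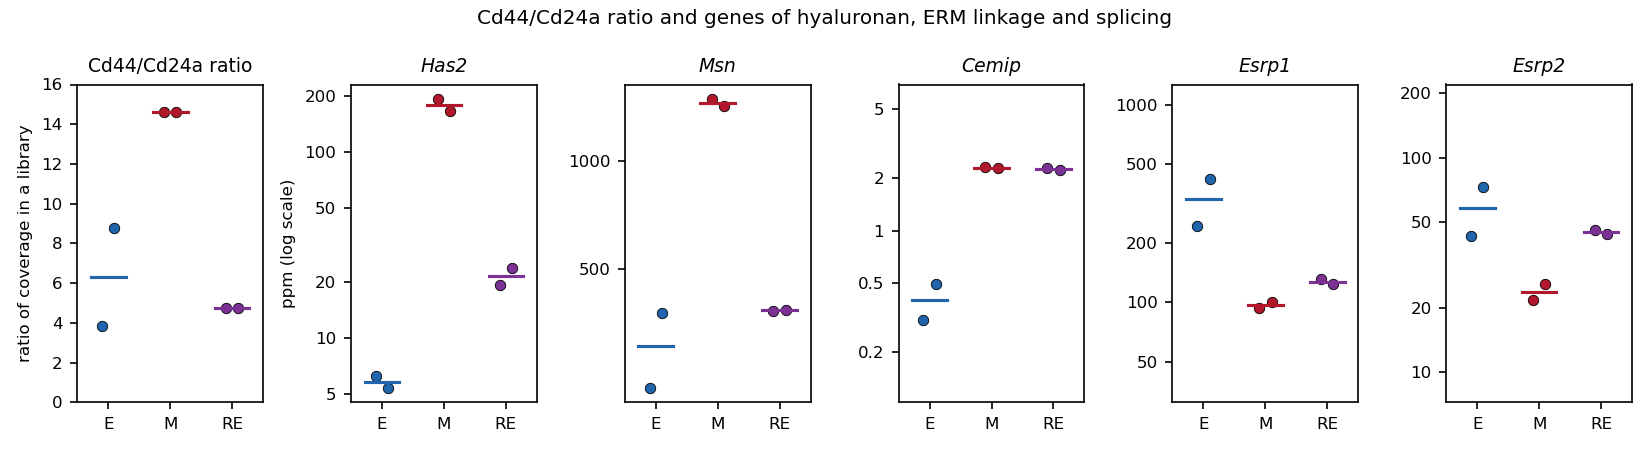
Ratio of *Cd44* to *Cd24a* coverage in each library (left) and normalised coverage (ppm, log axis) of *Has2*, *Msn*, *Cemip*, *Esrp1* and *Esrp2* in the E, M and RE libraries, with points for libraries and bars for the mean of 2. The ratio is 14.6 in each M library, and *Has2* reaches 165 and 192 ppm there.

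*Procr*, the protein C receptor, was highest in M cells. It was measured at 6.95 and 7.34 ppm in E cells, 21.0 and 18.2 ppm in M cells and 4.85 and 5.34 ppm in RE cells. The RE libraries were the lowest. Its mean rose 2.75-fold in E vs. M (log2 change 1.44, SE 0.17, adjusted p = 5.99e-04 by limma) and was 3.85-fold lower in RE than in M cells (log2 change -1.92, SE 0.17, adjusted p = 1.79e-04). The E vs. M call was lost without the first M library (log2 change 1.34, adjusted p = 0.0133), and the M vs. RE call held without each library in turn. In E vs. RE the difference was -0.48 (95% confidence interval -0.88 to -0.09, adjusted p = 0.0679). PROCR is also made by endothelium, and the endothelial list summed to 0.370 to 0.560 ppm in E, 2.71 to 2.73 ppm in M and 0.493 to 0.497 ppm in RE cells, of which *Cdh5* made up 2.33 and 2.07 ppm in M cells while *Kdr* was at the floor in all libraries.

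Of 9 partners of the receptor (ligands, protease-activated receptors and clotting factors), 5 were tested. In E vs. M 2 rose and 1 fell, in M vs. RE 1 rose and 1 fell, and in E vs. RE 1 rose and 1 fell, with median log2 changes of 0.15, -0.21 and 0.44. Among all genes tested, 8.58% rose and 8.39% fell in E vs. M. The shares were 8.08% and 4.79% in M vs. RE and 6.20% and 3.17% in E vs. RE. *Pros1*, the cofactor of activated protein C, was measured at 12.7 and 9.43 ppm in E, 46.3 and 39.7 ppm in M and 37.2 and 34.6 ppm in RE cells, and rose in E vs. M (log2 change 1.96, SE 0.18, adjusted p = 2.00e-04 by limma). *F2rl1*, protease-activated receptor 2, was measured at 7.97 and 12.8 ppm in E cells and between 1.73 and 2.24 ppm in the 4 other libraries, and fell in E vs. M (log2 change -2.24, SE 0.27, adjusted p = 6.22e-04). *F2r*, the thrombin receptor, had means of 2.19, 7.02 and 2.12 ppm in E, M and RE cells, and *F3*, tissue factor, had means of 12.5, 9.04 and 19.4 ppm.

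*Sox9* and *Lgr4* were highest in RE cells. *Sox9* was measured at 98.4 and 96.7 ppm in E, 68.1 and 81.2 ppm in M and 191 and 224 ppm in RE cells. It rose 2.78-fold from M (74.6 ± 9.25 ppm, SD, n = 2) to RE cells (208 ± 23.8), a log2 change of 1.47 (SE 0.15, adjusted p = 3.29e-04 by limma) that held without each library in turn. Against E cells (97.5 ± 1.18) the RE mean was 2.13-fold higher (log2 change 1.08, SE 0.15, adjusted p = 0.0024). That last change sat at the threshold. It was not called with library totals (log2 change 0.99), in a fit of these groups alone (adjusted p = 0.0115), or without the first (adjusted p = 0.0272) or the second (log2 change 0.97, adjusted p = 0.0351) RE library. In E vs. M the difference was -0.39 (95% confidence interval -0.73 to -0.05, adjusted p = 0.0678).

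Among the relatives and partners of SOX9, 5 of 11 genes were tested, with 2 higher and 0 lower in E vs. M, 1 higher and 0 lower in M vs. RE, and 1 higher and 0 lower in E vs. RE. At an unadjusted p below 0.05, 2, 1 and 3 of them were higher, against 25.9%, 22.0% and 23.7% of all genes. In the same order, 1, 2 and 1 were lower, against 25.1%, 20.7% and 19.7% of all genes. The median log2 changes were 0.66, 0.37 and 1.03. Calls over all genes were 8.58% higher and 8.39% lower in E vs. M. They were 8.08% and 4.79% in M vs. RE and 6.20% and 3.17% in E vs. RE. *Sox5*, a co-factor of SOX9 in cartilage, was measured at 0.462 and 0.599 ppm in E, 0.120 and 0.237 ppm in M and 2.0 and 1.44 ppm in RE cells. *Col2a1*, the cartilage collagen gene that SOX9 activates, was measured at 1.60 and 0.938 ppm in E, 3.63 and 5.16 ppm in M and 7.10 and 6.85 ppm in RE cells. *Sox8*, the closest relative of *Sox9*, was listed at 0 in both E libraries and at 0.914 and 0.857 ppm in the M libraries, which was at least 11.3-fold higher against a floor of 3 reads per library. In RE cells *Sox8* was listed at 0 in the first library and at 0.205 ppm in the second.

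*Lgr4*, the R-spondin receptor, was measured at 26.2 and 25.3 ppm in E cells, 31.9 and 34.7 ppm in M cells and 90.6 and 84.2 ppm in RE cells. The RE libraries stood well above the others. Its mean was 3.39-fold higher in RE (87.4 ± 4.58 ppm, SD, n = 2) than in E cells (25.8 ± 0.613), a log2 change of 1.76 (SE 0.13, adjusted p = 3.45e-04 by limma), and 2.62-fold higher than in M cells (33.3 ± 1.95), a log2 change of 1.39 (SE 0.13, adjusted p = 2.48e-04). The E vs. RE call was lost without the first RE library (log2 change 1.70, adjusted p = 0.0129). E and M cells differed by 0.37 (95% confidence interval 0.06 to 0.67, adjusted p = 0.0562). *Lgr4* was the highest of the 9 tested markers in E vs. RE by log2 change.

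Of 13 genes around LGR4, 11 were tested. The 13 were R-spondins, LGR relatives, Frizzled receptors, the ligases that remove them, *Lrp5*, *Lrp6* and *Axin2*. In E vs. M 3 rose and 1 fell, in M vs. RE 2 rose and 2 fell, and in E vs. RE 1 rose and 1 fell. The median log2 changes were 0.51, 0.13 and 0.64, the last of which became 0.49 with *Rspo1* set to its bound. Among all genes tested, 8.58% rose and 8.39% fell in E vs. M. The shares were 8.08% and 4.79% in M vs. RE and 6.20% and 3.17% in E vs. RE. *Lgr6*, a relative of *Lgr4*, was measured at 14.8 and 17.5 ppm in E, 32.7 and 32.3 ppm in M and 5.26 and 5.16 ppm in RE cells, and fell in M vs. RE (log2 change -2.62, SE 0.16, adjusted p = 3.51e-05 by limma), where *Lgr4* rose. *Rspo1*, a ligand of both receptors, was listed at 0 in both E libraries, at 2.21 and 2.32 ppm in the M libraries and at 0.0965 and 0.0228 ppm in the RE libraries, so that M cells stood at least 29.0-fold above E cells against the floor of 3 reads per library. *Fzd7*, a Wnt receptor of mammary stem cells, was measured at 98.2 and 60.9 ppm in E, 21.6 and 20.5 ppm in M and 238 and 206 ppm in RE cells. It fell in E vs. M (log2 change -1.87, SE 0.22, adjusted p = 6.11e-04) and rose in M vs. RE (log2 change 3.39, SE 0.22, adjusted p = 4.70e-05), and *Fzd5* had means of 4.79, 16.1 and 8.03 ppm.

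*Hmga2*, the let-7 target, was lower in RE than in M cells. It was measured at 4.47 and 5.0 ppm in E cells, 7.19 and 8.0 ppm in M cells and 1.18 and 2.55 ppm in RE cells. The RE libraries differed 2.16-fold from each other. Its mean was 4.07-fold lower in RE (1.87 ± 0.968 ppm, SD, n = 2) than in M cells (7.59 ± 0.576), a log2 change of -2.06 (SE 0.33, adjusted p = 0.00309 by limma). The call was lost without the first M library (adjusted p = 0.0273), the second M library (0.0324) or the first RE library (log2 change -1.54, adjusted p = 0.0147). Against E cells (4.73 ± 0.372 ppm) the RE level was lower by a log2 difference of -1.39 (95% confidence interval -2.16 to -0.62) that was not called at adjusted p = 0.0188, but was called without the first (adjusted p = 0.00207) or the second (0.00281) E library. In E vs. M the difference was 0.67 (-0.10 to 1.44, adjusted p = 0.141). Of 9 HMGA relatives and genes of the LIN28 and let-7 axis, 7 were tested and 0 were called by limma in any comparison. Of all genes tested, 17.0%, 12.9% and 9.37% were called in E vs. M, M vs. RE and E vs. RE. At an unadjusted p below 0.05, 1 gene of the list was higher and 1 lower in E vs. M, against 25.9% and 25.1% of all genes. There were 0 higher and 2 lower in M vs. RE (22.0% and 20.7% of all genes), and 0 and 4 in E vs. RE (23.7% and 19.7%). The median log2 changes of the list were -0.22, -0.25 and -0.45.

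*Bmi1*, the Polycomb subunit, kept within a narrow range. It was measured at 46.1 and 42.4 ppm in E, 57.9 and 55.9 ppm in M and 62.1 and 61.3 ppm in RE cells. The log2 differences were 0.36 in E vs. M (95% confidence interval 0.07 to 0.66, adjusted p = 0.0515 by limma), 0.12 in M vs. RE (-0.18 to 0.41, adjusted p = 0.521) and 0.48 in E vs. RE (0.19 to 0.77, adjusted p = 0.0261), so that each interval stayed under 1, the size needed for a call. Of 16 genes of the PRC1 list, 14 were tested. *Cdkn2a*, a target that the complex represses, was not among the genes with values. In E vs. M 1 gene of the list was called higher and 1 lower, against 8.58% and 8.39% of all genes. *Pcgf3*, a relative of *Bmi1*, was called higher in E vs. M, with means of 17.8, 45.5 and 23.7 ppm in E, M and RE cells, a call lost without any single M or RE library (adjusted p = 0.0278 and 0.0374 without the first and second M library, 0.0119 and 0.0120 without the first and second RE library). *Cbx7*, a chromodomain subunit, was called lower in E vs. M, with means of 6.33, 1.76 and 5.07 ppm, a call lost without the second M library (log2 change -1.38, adjusted p = 0.0271) or the first (0.0124) or second (0.0125) RE library. The median log2 changes of the list were 0.021, 0.16 and -0.0047. By limma 0 of the 14 were called when RE cells were compared with M or with E cells, against 12.9% and 9.37% of all genes. At an unadjusted p below 0.05, 1 was higher and 5 lower in E vs. M, against 25.9% and 25.1% of all genes. There were 5 higher and 3 lower in M vs. RE (22.0% and 20.7% of all genes), and 1 higher and 2 lower in E vs. RE (23.7% and 19.7%).

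*Prom1* (CD133) lay near the floor. It was measured at 0.0884 and 0.178 ppm in E cells, 0.0240 and 0.0505 ppm in M cells and 0.265 and 0.290 ppm in RE cells, which is 191 and 342, 50 and 104, and 627 and 638 bases of sequence. The M libraries were at the floor. Against a floor of 3 reads per library, the mean of E cells was at least 1.83-fold and that of RE cells at least 3.82-fold higher. The bound for E cells compares means only, and the first E library, at 191 bases, was itself near the floor. The E vs. M difference was -0.74 on the log2 scale (95% confidence interval -1.65 to 0.17, adjusted p = 0.162 by limma) and was not called. A difference between E and M cells was thus not established. The M vs. RE difference was not called (adjusted p = 0.0256 by limma), and was called with limma's array weights for the libraries (adjusted p = 0.0030). E and RE cells differed by 0.72 on the log2 scale of ppm plus 0.1 (95% confidence interval -0.19 to 1.63, adjusted p = 0.195), a scale that understates changes of genes this low.

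The retinaldehyde dehydrogenases among the markers were low as well. *Aldh1a1* was measured at 1.40 and 0.480 ppm in E, 0.178 and 0.121 ppm in M and 0.614 and 0.248 ppm in RE cells, with the M libraries below all others and the E and RE libraries overlapping. Replicates differed 2.91-fold in E and 2.48-fold in RE cells. The log2 difference was -1.91 in E vs. M (95% confidence interval -3.17 to -0.65, adjusted p = 0.0253 by limma), which was not called but was called without the second E library (log2 change -2.60, adjusted p = 2.91e-04). It was 1.0 in M vs. RE (-0.25 to 2.26, adjusted p = 0.198) and -0.90 in E vs. RE (-2.16 to 0.35, adjusted p = 0.237). *Aldh1a3* was measured at 0.0282 and 0.0390 ppm in E, 0.0781 and 0.0723 ppm in M and 0.0571 and 0.0291 ppm in RE cells. E and RE cells were at the floor and the M libraries held 163 and 149 bases, so a change of *Aldh1a3* was not detectable at this depth.

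Several other genes that handle aldehydes and retinoids changed between stages. Of 19 genes of this list, 16 were tested, of which 2 rose and 4 fell in E vs. M, 7 rose and 0 fell in M vs. RE, and 4 rose and 0 fell in E vs. RE. The median log2 change was -0.13, 0.98 and 0.74. Calls over all genes were 8.58% higher and 8.39% lower in E vs. M. They were 8.08% and 4.79% in M vs. RE and 6.20% and 3.17% in E vs. RE. At an unadjusted p below 0.05, 3 genes of the list were higher and 6 lower in E vs. M, against 25.9% and 25.1% of all genes. There were 11 higher and 1 lower in M vs. RE (22.0% and 20.7% of all genes), and 9 higher and 0 lower in E vs. RE (23.7% and 19.7%). *Aldh3a1*, which detoxifies lipid aldehydes, was measured at 104 and 56.9 ppm in E, 2.14 and 2.13 ppm in M and 319 and 387 ppm in RE cells. It fell by 5.10 on the log2 scale in E vs. M (SE 0.27, adjusted p = 1.84e-05 by limma) and rose by 7.29 in M vs. RE (SE 0.27, adjusted p = 9.84e-06). *Dhrs3*, which turns retinaldehyde back into retinol, was measured at 10.9 and 9.73 ppm, 1.51 and 1.24 ppm, and 26.2 and 24.3 ppm in the 3 stages, with log2 changes of -2.83 in E vs. M (SE 0.18, adjusted p = 4.42e-05) and 4.11 in M vs. RE (SE 0.18, adjusted p = 1.19e-05). *Aldh1a7*, the near copy of *Aldh1a1*, was measured at 0.721 and 0.370 ppm in E and 0.450 and 0.410 ppm in RE cells and listed at 0 in both M libraries, so that E cells were at least 7.49-fold and RE cells at least 5.90-fold higher against the floor of 3 reads per library. *Stra6*, the retinol uptake receptor, had means of 0.299, 2.38 and 1.19 ppm. *Aldh2*, the mitochondrial acetaldehyde dehydrogenase, *Aldh3a2* and *Aldh3b1* were named after their values were seen. *Aldh2* fell from a mean of 1597 ppm in E to 404 ppm in M cells (log2 change -1.98, SE 0.14, adjusted p = 5.79e-05) and rose to 1793 ppm in RE cells (log2 change 2.15, SE 0.14, adjusted p = 4.35e-05).

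**Figure D4:**
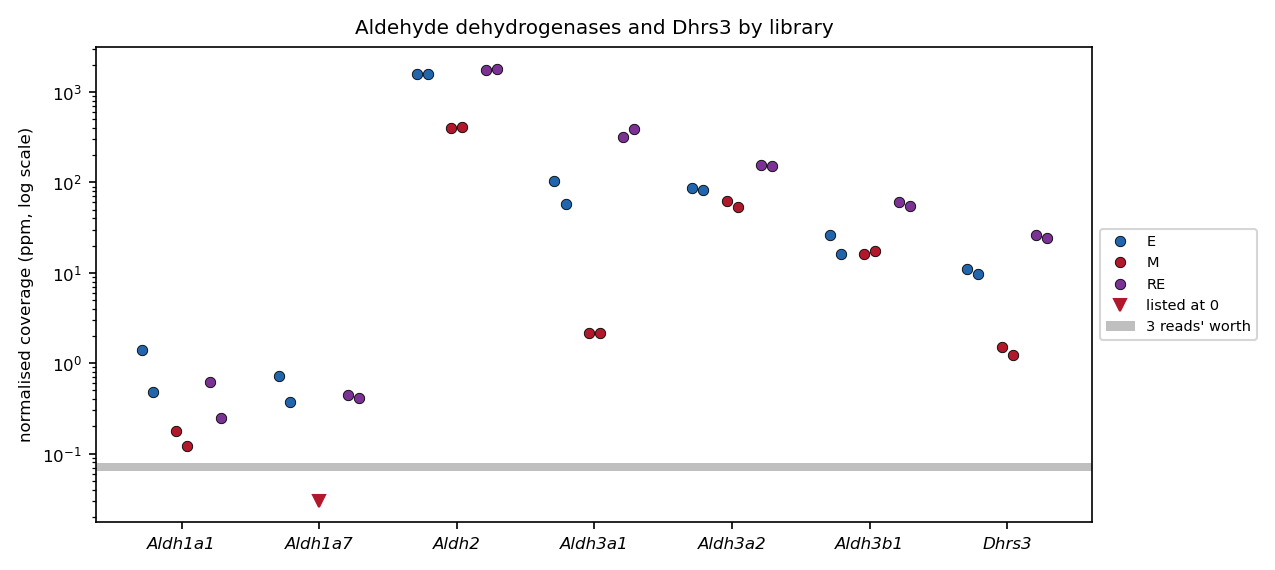
Normalised coverage (ppm, log axis) of *Aldh1a1*, 5 other aldehyde dehydrogenase genes and *Dhrs3* in each E, M and RE library, with the grey band at the coverage of 3 reads and triangles for values listed at 0. *Aldh1a1* stays at or below 1.40 ppm, while *Aldh2* lies between about 404 ppm in M and 1793 ppm in RE cells.

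The 10 markers were set beside 28 other mammary stem and progenitor genes, of which 21 were tested. In E vs. M 7 rose and 6 fell, in M vs. RE 5 rose and 7 fell, and in E vs. RE 1 rose and 4 fell, with median log2 changes of 0.26, 0.40 and 0.46 (the last 0.43 with *Itgb3*, at the floor in E cells, set to its bound). Among all genes tested, 8.58% rose and 8.39% fell in E vs. M. The shares were 8.08% and 4.79% in M vs. RE and 6.20% and 3.17% in E vs. RE. Integrin genes were among the listed genes that rose in M cells. *Itga2*, the collagen receptor subunit, was measured at 1.69 and 4.94 ppm in E, 181 and 214 ppm in M and 2.78 and 3.08 ppm in RE cells, with log2 changes of 6.03 in E vs. M (SE 0.42, adjusted p = 5.78e-05 by limma) and -6.02 in M vs. RE (SE 0.42, adjusted p = 6.03e-05). *Itgb3* (CD61) was at the floor in E cells and at 10.5 and 11.8 ppm in M cells, at least 143-fold higher against 3 reads per library. *Elf5*, the transcription factor of alveolar progenitors, was measured at 0.0463 and 0.0812 ppm in E, 2.9 and 2.88 ppm in M and 0.176 and 0.367 ppm in RE cells, and rose in E vs. M (log2 change 4.20, SE 0.36, adjusted p = 1.35e-04). *Ly6a* (Sca-1) went the other way, at 89.2 and 69.1 ppm in E, 2.57 and 2.41 ppm in M and 24.0 and 19.9 ppm in RE cells. It fell in E vs. M (log2 change -4.92, SE 0.18, adjusted p = 9.20e-06) and rose in M vs. RE (log2 change 3.08, SE 0.18, adjusted p = 3.47e-05). The genes that follow were named after their values were seen. *Itgb1* (CD29) rose from a mean of 814 ppm in E to 2395 ppm in M cells and stood at 1099 ppm in RE cells, while *Itga6* (CD49f), which is gated together with CD29, had means of 62.8, 74.8 and 99.2 ppm and was not called. *Klf4*, a reprogramming factor, fell from a mean of 129 to 19.1 ppm and rose to 142 ppm in RE cells, and *Notch1* had means of 169, 67.6 and 312 ppm.

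**Figure D5:**
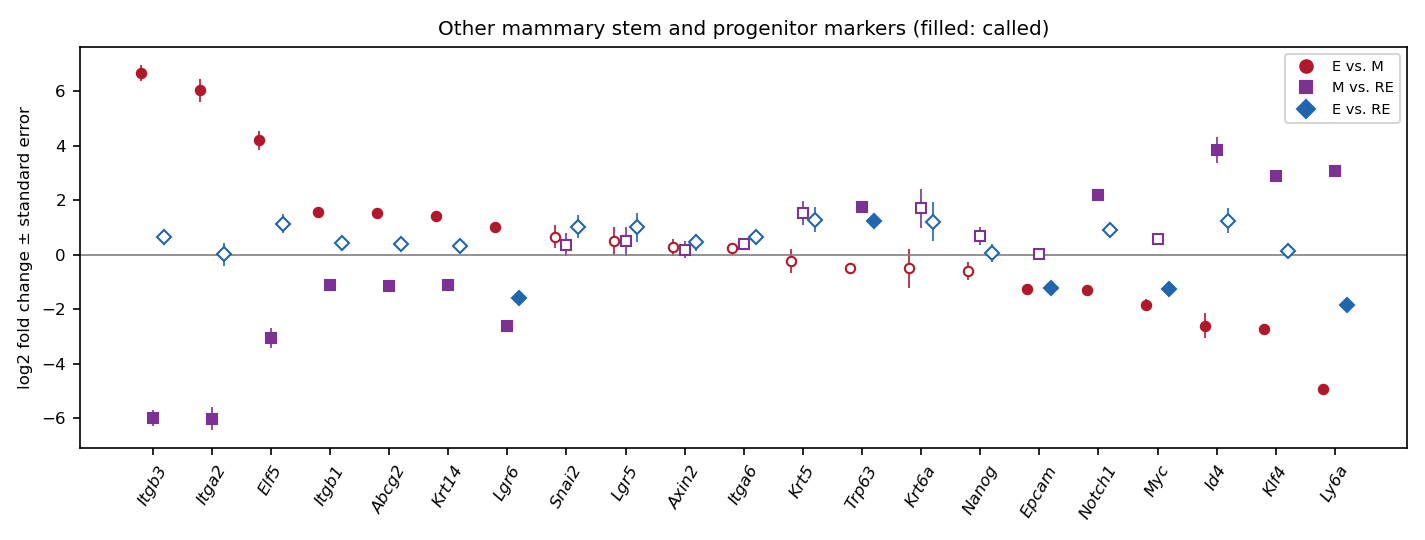
Log2 fold changes with standard errors of the 21 tested genes among the other mammary stem and progenitor markers in E vs. M, M vs. RE and E vs. RE, ordered by E vs. M, with filled symbols for called changes. The genes spread to both sides of 0, from *Itgb3* and *Itga2* at one end to *Ly6a* at the other.

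Calls of genes beside the markers depended on single libraries. Across all lists, 90 of 114 genes were tested. Of the 90, 36 were called in E vs. M, 28 between M and RE cells and 18 between E and RE cells, against 17.0%, 12.9% and 9.37% of all genes. Of these calls, 14, 13 and 0 held when each library was left out in turn, and the E vs. RE calls fell to 0 of 18 without the first and 0 of 18 without the second RE library. The changes given with a standard error above, other than those of the markers, are among the calls that held. *Itgb3*, *Rspo1* and *Sox8* could not be tested without either M library, since too few libraries then passed the coverage filter. The E vs. M call of *Sox8* was also lost with array weights (adjusted p = 0.0124 by limma) and with a pseudocount of 1 ppm (log2 change 0.91).

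For each of the 5 called markers, the genes with the nearest profile over the 6 libraries were looked up among 10096 genes, as a description without a test. The likeness was measured by the Euclidean distance between log2 profiles centred on their means, and the profiles are dominated by the 3 stages. *Cd44* was nearest to *Pkp1* (distance 0.23, Pearson's r = 0.995), *Lrrc8c* (0.28, 0.998) and *Evi1* (0.28, 0.997). *Procr* was nearest to *Ivns1abp* (0.15, 0.998), *Arhgap22* (0.15, 0.997) and *Dbn1* (0.18, 0.997). *Sox9* was nearest to *4632428N05Rik* (0.27, 0.985), *Glul* (0.32, 0.992) and *Mobkl2b* (0.32, 0.979). *Lgr4* was nearest to *Ghr* (0.16, 0.996), *Pam* (0.26, 0.991) and *Pcdh17* (0.26, 0.995), and *Hmga2*, whose RE replicates lay furthest apart, to *Tmem130* (0.57, 0.976), *Prkg2* (0.58, 0.986) and *Kcnn4* (0.69, 0.951). *Pam* was measured at means of 211, 275 and 724 ppm in E, M and RE cells, and *Ghr*, the growth hormone receptor, at 28.2, 38.7 and 99.7 ppm, beside 25.8, 33.3 and 87.4 ppm for *Lgr4*.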

How the data were processed

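RNA of E, M and RE cells (2 libraries each) was sequenced on an Illumina Genome Analyzer. The authors mapped unique reads to the NCBI-m37 mouse genome with Bowtie and TopHat2. How reads were summed per gene, with which annotation and in which versions, is not given in the sources used here. The deposited values are a signal, coverage in sequenced bases per gene, and not read counts: whole numbers that sum to between 1789125650 and 2396427835 per library, of which 44.8% to 48.4% of the low values (at most 400 bases) are multiples of 50. The paper's count test could therefore not be used.

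Column names gave the library, and 0 columns were left unused. Values were scaled to ppm by unweighted TMM (trims of 30% and 5%, factors 0.871 to 1.12). A gene was tested if 2 or more libraries held 500 bases of it (13893 of 17428), on log2(ppm + 0.1) by limma 3.58.1 with a mean trend in R 4.3.3, in a single fit of the 6 libraries. P-values were adjusted by Benjamini-Hochberg over all genes tested. A gene was called at a log2 change over 1 either way and an adjusted p below 0.01. Changes are second stage over first, on the scale of log2(ppm + 0.1). Confidence intervals are at 95% and not adjusted. The script was tested on simulated data.

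Named were all 10 markers, up to 4 called genes with the largest change of each partner list, and 3 nearest profiles per called marker. The markers and lists were chosen with earlier results of these data known. Older symbols were matched through RefSeq synonyms. Transcript lengths and shared 50-base stretches came from GENCODE M21 (GRCm38), which is another build than that of the reads, so no coordinates were taken from one to the other. Alternatives changed the pseudocount, filter, scaling, thresholds, samples in the fit, weights and replicate block.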

Additional observations from a re-analysis of the deposited data

How the results depend on the processing

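With 2 libraries per stage, the replicate spread limits these results, and depth limits those of *Prom1*, *Aldh1a1* and *Aldh1a3*. The count of called markers in E vs. RE fell from 2 to 1 with library totals and to 1 when the fit held only the groups compared, where genes of the partner lists called fell to 10 from 18 and all genes called to 525 from 1302. With a pseudocount of 1 ppm the log2 ratio of *Cd44* to *Cd24a* moved from 3.86 to 3.83 in M cells and was 2.2 instead of 2.24 in RE cells, beyond the very small replicate spread of that ratio. Leaving out 1 library at a time gave 0 to 3 called markers (E vs. M), 3 to 5 (M vs. RE) and 0 to 3 (E vs. RE), and in the same order 17 to 43, 14 to 34 and 0 to 26 genes of the partner lists, and 945 to 3362, 683 to 2337 and 44 to 2348 of all genes. Where a stage was left with 1 library, that library was assumed to vary like the others. The log2 ratio of *Cd44* to *Cd24a* then ranged from 1.93 to 3.12 in E, 3.86 to 3.87 in M and 2.24 to 2.24 in RE cells. Directions turned for *Cd24a* in M vs. RE (0.024 with library totals) and for *Cd44* in E vs. RE (-0.28 without the first and 0.55 without the second E library), neither of which was called. Over all single-marker results and settings, 422 kept their direction and their side of the threshold, 15 lost and 8 gained a call. The cause of these moves was not tested, apart from the smaller number of libraries or genes that a setting leaves by construction.

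The replicate numbers were shared by the stages, but nothing in the labels pairs the libraries. Deviations of same-numbered libraries correlated at 0.267 between E and M, 0.058 between E and RE and 0.116 between M and RE. A fit with a replicate block called 3 markers in E vs. M, 5 between M and RE, and 2 between E and RE. The added call was *Aldh1a1* in E vs. M (log2 change -1.91, adjusted p = 0.0062 by limma), and the block changed no other call of a marker.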
